A study of Macaca mulatta with 34 samples.

Results

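The 10 genes described here encode secreted or membrane-bound inflammatory signals and were measured in the brain of rhesus macaques that had received adeno-associated virus (AAV) vectors. The tissue was the deep cerebellar nuclei (DCN), which carry the output of the cerebellum. They are the chemokines CCL2, CCL3, CCL18, CXCL9, CXCL10 and CXCL16 and the cytokines IL1B, IL33, CSF1 and TNFSF14. The members were taken by symbol: each of the 10 symbols matched 1 Ensembl macaque identifier among the 34847 found in all 22 DCN libraries. The 10 genes were chosen with earlier results of these data known. Total RNA was sequenced in 2 studies, of which the first looked into the toxicity of the AAV.miS1 vector and the second into immune responses to redesigned cargo. Study 1 has 6 libraries of AAV.miS1 (rAAV2/1.miS1) and 4 of vehicle, the injected fluid alone. Study 2 has 3 libraries each of empty capsid, a capsid without its cargo, and of the vectors named intmiS1, miSCA7Stuffer and StufferOnly. By these names, intmiS1 carries another configuration of the miS1 cargo, miSCA7Stuffer carries the miSCA7 cargo with a stuffer, and StufferOnly carries the stuffer alone. All 22 animals received their injection into the DCN under magnetic resonance guidance. The dose, the time to tissue collection and the animals' ages were not stated in the sources used here.

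Chemokines are small secreted proteins that bind G protein-coupled receptors on leukocytes and direct their migration. In brain tissue they can be made by microglia, astrocytes, endothelium and by leukocytes that have entered from blood. IL1B and IL33 belong to the interleukin-1 family, CSF1 sustains microglia and macrophages through its receptor CSF1R, and TNFSF14 (LIGHT) is a tumour necrosis factor family ligand of activated T cells and other leukocytes. Many of these genes are transcribed after NF-kappa-B, interferon or AP-1 signalling.

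Counts in genes ranged from 2049685 to 4810852 in 9 Study 1 libraries, and vehicle replicate 2 held 87741. In Study 2 they ranged from 20978241 to 39792653 in the 10 libraries counted with featureCounts, and were 5169866 and 4858179 in intmiS1 replicates 1 and 2, which were counted with STAR. Levels below are CPM, read counts scaled to a common library total, after TMM scaling within a study. Fold changes are log2 values with standard errors (SE) from edgeR's quasi-likelihood test, and a gene was called at a Benjamini-Hochberg adjusted p below 0.05 over all genes tested in that comparison. Levels of different genes are not compared, since no transcript lengths were used. In bulk tissue, a change in the number of cells of a type and a change in RNA per cell cannot be told apart. The labels give each DCN library its own animal. Neuron markers had a summed level of 1150.5 to 1736 CPM in the 7 vehicle and empty capsid libraries, and none of the 8 was at 0 throughout a group.

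In Study 1, 9 of the 10 genes rose with AAV.miS1 against vehicle, and CCL18 was too low in most libraries to be tested. Across all 13383 genes tested, 7.22% were called higher and 0.284% lower. For the 9 genes every AAV.miS1 library lay above every vehicle library, which held for 7.46% of all genes tested. The median log2 fold change of the 9 was 3.42, against 0.02 for all genes tested. CCL3, CXCL9, CXCL10 and TNFSF14 had 4, 6, 1 and 0 vehicle counts and passed the low-count filter through AAV.miS1 libraries alone. The separation and the median are therefore not independent of that filter. The calls rest on all 4 vehicle libraries: leaving out any 1 of them, or AAV.miS1 replicate 4, left 0 members called, while 7 to 10 stayed at an unadjusted p below 0.05, as did 15.1% to 18.8% of all genes in the upward direction. In those 5 fits 0 to 3 genes of the whole table were called.

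**Figure D1:**
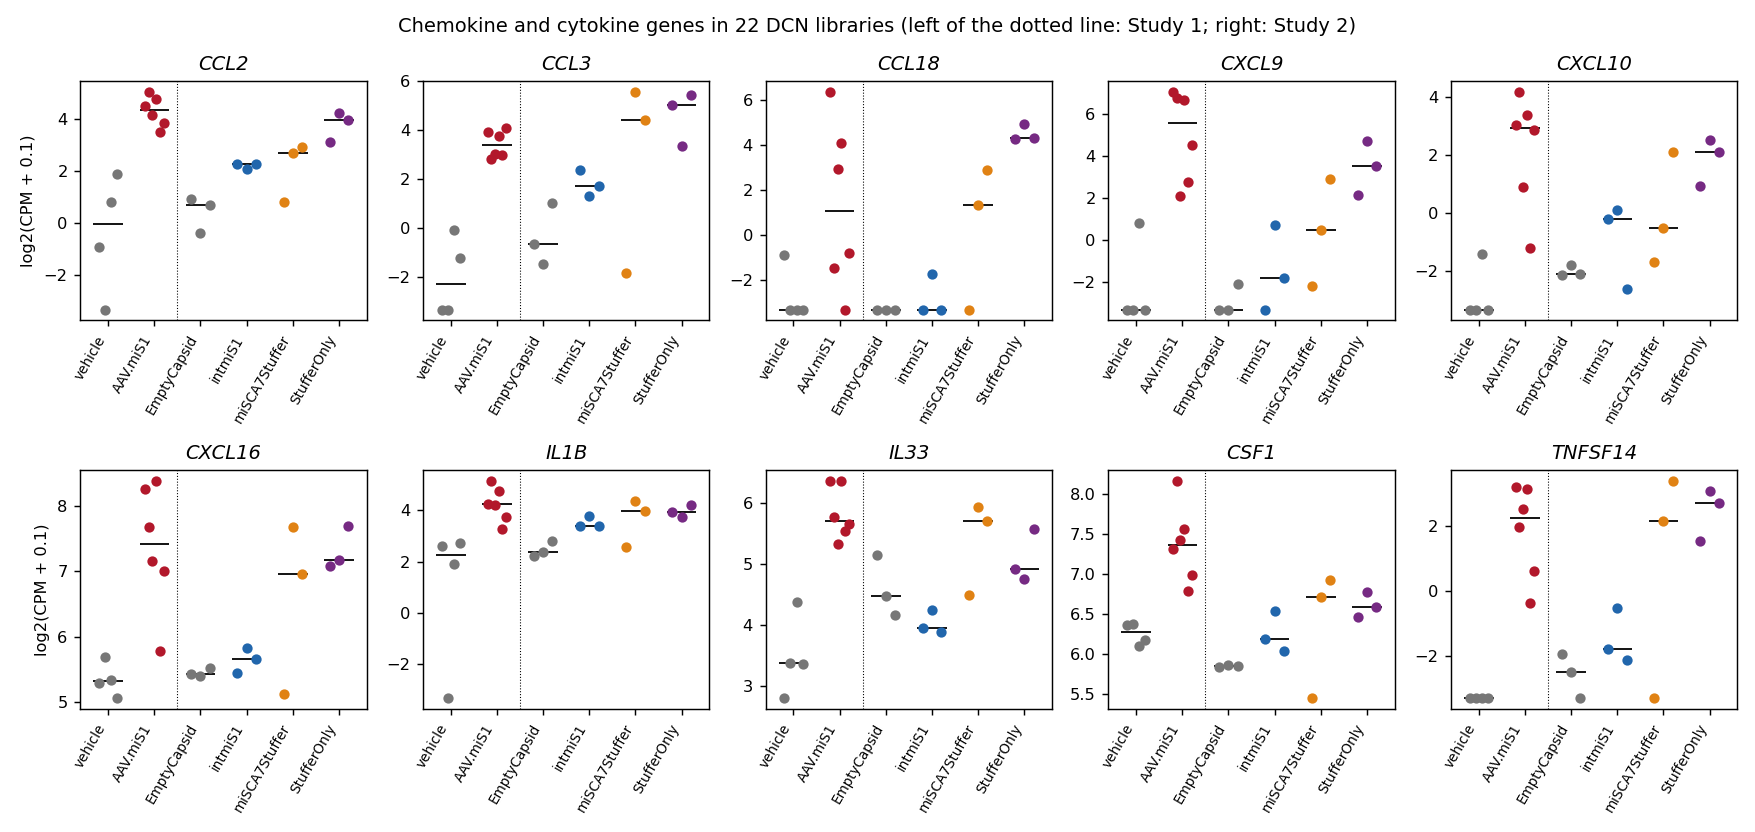
Each point is 1 library, plotted as log2(CPM + 0.1) on the vertical axis by group on the horizontal axis, with 1 panel per gene and a line at each group's median; grey points are vehicle (Study 1) and empty capsid (Study 2). All 6 AAV.miS1 points lie above all 4 vehicle points in the 9 panels other than CCL18, and 1 miSCA7Stuffer point sits low in every panel.

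CCL2 draws monocytes through the receptor CCR2. It was 0.430, 0, 1.68 and 3.63 CPM in the 4 vehicle libraries and 11.2 to 32.8 CPM (median 20.2) in the 6 AAV.miS1 libraries. The lowest AAV.miS1 value thus lay above the highest vehicle value, with no overlap. The rise was 3.42 on the log2 scale (SE 0.54, adjusted p = 0.0275). CCL3, a ligand of CCR1 on monocytes and T cells, was 0, 0, 0.839 and 0.330 CPM with vehicle, from 4 counts in all, and 6.97 to 17.1 CPM (median 10.7) with AAV.miS1. The 6 AAV.miS1 libraries lay within 2.45-fold of each other, and the rise was 4.60 (SE 0.61, adjusted p = 0.0275).

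CXCL9 and CXCL10 are induced by interferons and attract T cells through CXCR3. CXCL9 was at 0 in 3 vehicle libraries and 1.68 CPM (6 counts) in the remaining one. It ran from 4.24 to 135 CPM (median 62.7) with AAV.miS1, a 31.7-fold range, and its rise was 6.55 (SE 1.49, adjusted p = 0.0313). AAV.miS1 replicates 1, 2 and 4 held 135, 109 and 103 CPM, and replicates 3, 5 and 6 held 4.24, 6.76 and 22.8. CXCL10 had 1 count in the 4 vehicle libraries together, in replicate 3 (0.280 CPM), and 0.338 to 17.8 CPM (median 7.55) with AAV.miS1. Its call had an adjusted p of 0.0344, and the ratio of summed counts, each over its group's total, was 74.0, with an exact 95% interval of 13.1 to 2942 that covers counting error only. The lowest AAV.miS1 library of CXCL10, replicate 5, also held only 1 count, so the groups lie apart there through the scaling to library size alone.

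CXCL16 is a transmembrane chemokine of macrophages and dendritic cells and the ligand of CXCR6. It was 39.2, 51.7, 40.5 and 33.3 CPM with vehicle and 54.8 to 335 CPM (median 174) with AAV.miS1. Replicate 5 at 54.8 CPM came near the highest vehicle library, whereas the other AAV.miS1 libraries held at least 129 CPM. The rise was 2.33 (SE 0.48, adjusted p = 0.0275). In the T2T-MMU8v2.0 annotation the CXCL16 gene overlaps MED11 on one side and ZMYND15 on the other. On the strand opposite to CXCL16, 88 counts in vehicle and 180 in AAV.miS1 libraries were assigned to it, against 342 and 4153 on its own strand, which is the one used here.

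CCL18, a chemokine of alternatively activated macrophages and dendritic cells that binds CCR8, was spread widely over the AAV.miS1 animals. It had 1 count in the vehicle libraries together (0.430 CPM in replicate 1). The AAV.miS1 libraries held 80.9, 0.258, 7.43, 16.6, 0 and 0.475 CPM in replicates 1 to 6, so 4 of the 6 lay above every vehicle library and the groups overlapped. Of these 4, replicate 6 held only 1 count, so it lay above vehicle replicate 1 through the scaling to library size alone. The difference of mean log2(CPM + 1) was 2.28, with a two-sided exact permutation p of 0.0810 (0.140 adjusted over the 4 members and receptors that failed the filter), where the smallest p that 6 against 4 libraries allow is 0.00476. The same ratio of summed counts was 193 (exact 95% interval 34.4 to 7627, counting error only), and 334 of the 419 AAV.miS1 counts came from replicate 1. DESeq2, which kept the gene, called CCL18, so that all 10 members passed by that tool, which called 10.8% of all genes higher.

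IL1B, the interleukin-1 beta cytokine released by activated myeloid cells, was 6.02, 0, 3.63 and 6.60 CPM with vehicle, where the 0 belongs to the shallow replicate 2. It was 9.47 to 35.6 CPM (median 18.8) with AAV.miS1, above every vehicle library, and rose by 1.98 (SE 0.45, adjusted p = 0.0312). IL33 is a nuclear alarmin that is stored in astrocytes and oligodendrocytes and released on damage. Its levels were 6.88, 10.3, 20.7 and 10.2 CPM with vehicle and 40.0 to 82.3 CPM (median 52.3) with AAV.miS1. Its AAV.miS1 libraries spanned only 2.06-fold, the narrowest of the 9 called members, and the rise was 2.23 (SE 0.36, adjusted p = 0.0275).

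CSF1, the macrophage colony-stimulating factor, showed the smallest of the 9 changes. It was 82.2, 82.7, 68.5 and 72.2 CPM with vehicle and 110 to 287 CPM (median 165) with AAV.miS1, without overlap, and rose by 1.20 (SE 0.26, adjusted p = 0.0289). TNFSF14, which signals through TNFRSF14 (HVEM) and LTBR, was at 0 in all 4 vehicle libraries. It was 0.676 to 9.20 CPM (median 4.77) with AAV.miS1, from 2 to 38 counts a library. Taking 3 counts in the vehicle libraries together as its floor, TNFSF14 was at least 14.9-fold higher with AAV.miS1 (adjusted p = 0.0394).

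Across the AAV.miS1 animals, replicate 5 was the lowest of the group for 7 of the 10 members, and replicates 1 and 2 were each the highest for 4. Replicate 5 held 24.0 vector RPM (vector reads on both strands, scaled without TMM to the unstranded counts in genes) and replicate 1 held 22.2, against 548 in replicate 2. The library with the highest CCL18, CXCL9, IL33 and TNFSF14 thus had the lowest vector RPM of the 6. Marker genes of macrophages and monocytes had a summed level of 20305 CPM in replicate 1 and 375 in replicate 5, against 54.8 to 724 in the vehicle libraries. The 724 belongs to the shallow vehicle replicate 2. Of these markers 5 of 7 tested were called higher, and S100A8 was at 0 in every Study 1 library. T and NK cell markers summed to 15.9 to 181 CPM with AAV.miS1 and 5.94 to 11.6 with vehicle, with 4 of 6 tested called higher and LCK at 0 in all vehicle libraries. B and plasma cell markers summed to 11.5 to 1558 CPM against 2.31 to 41.4, and choroid plexus and meninges markers to 94.5 to 946 against 59.0 to 103. Microglia markers summed to 842 to 1846 CPM against 643 to 900, and endothelium markers to 255 to 586 against 258 to 337. Astrocyte markers summed to 2639 to 25717 CPM against 12727.5 to 15141. The microglia, endothelium and astrocyte ranges each overlapped with vehicle. So did those of macrophages and monocytes, of B and plasma cells, and of choroid plexus and meninges. For microglia, macrophages and monocytes, and B and plasma cells, the overlap came from the shallow vehicle replicate 2 alone. The other vehicle libraries held at most 774 CPM of microglia markers. Neuron markers summed to 21.5 CPM in replicate 1 and to 1178 in replicate 5, against 1168 to 1736 with vehicle. The part of these cell types in the members' rises was not tested.

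Reads that did not map made up over 15% of a library in 3 vehicle and 2 AAV.miS1 libraries and less in the remaining 5. With this split as a covariate in edgeR, 3 members stayed called, CCL2, CCL3 and IL33, where 1.1% of all genes were called higher. The 6 calls that were lost had adjusted p values from 0.0579 to 0.108, with log2 fold changes of 5.41 for CXCL9, 5.06 for CXCL10, 1.80 for CXCL16, 1.56 for IL1B, 0.95 for CSF1 and 5.87 for TNFSF14 (a value set by the prior count), each lower than without the covariate. Within the set over 15%, 7 members passed the filter and 3 were called: CCL3, CXCL9 and IL33, where 0.916% of all genes were called higher. The set under 15% holds 1 vehicle library, so no comparison within it was made.

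**Figure D2:**
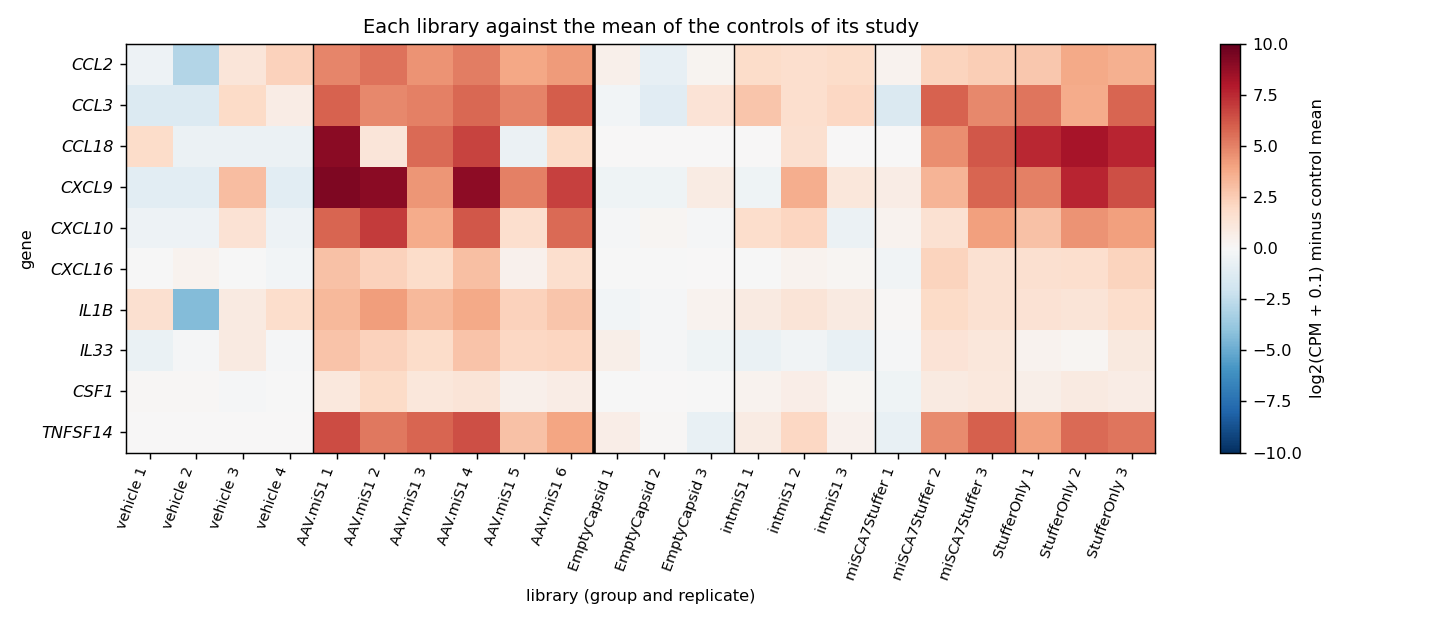
Colours give log2(CPM + 0.1) of each gene (rows) in each library (columns) minus the mean of the controls of its study, which are vehicle left of the thick line and empty capsid right of it; red is higher and blue is lower. AAV.miS1 replicate 5 is pale beside the other 5 of its group, and miSCA7Stuffer replicate 1 resembles the empty capsid columns while replicates 2 and 3 resemble StufferOnly.

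In Study 2, 7 of the 10 members rose with StufferOnly against empty capsid: CCL2, CCL18, CXCL9, CXCL10, CXCL16, IL1B and TNFSF14. Of all 20882 genes tested, 11.6% were called higher and 3.81% lower. For 9 members, all but IL33, every StufferOnly library lay above every empty capsid library, as for 26.8% of all genes tested. The members' median log2 fold change was 4.02, against 0.02 for all genes. CCL18, CXCL9, CXCL10 and TNFSF14 had 0, 4, 14 and 8 counts with empty capsid and passed the filter through vector libraries alone. This separation and median are likewise not independent of the filter. Leaving out any empty capsid library, or StufferOnly replicate 2 or 3, left 0 members called, and leaving out StufferOnly replicate 1 left 4 (CCL2, CCL18, CXCL9 and CXCL10), where 9.38% of all genes were called higher. In each of those 6 fits 8 members stayed at an unadjusted p below 0.05, as did 14.0% to 20.2% of all genes in the upward direction.

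CCL18 had 0 counts in the 3 empty capsid libraries and 18.8, 29.7 and 19.4 CPM in the 3 StufferOnly libraries, from 630, 640 and 624 counts. StufferOnly was at least 718-fold higher against a floor of 3 counts over the empty capsid group (adjusted p = 0.0250). Where the AAV.miS1 animals ran from 0 to 80.9 CPM, all 3 StufferOnly animals thus held a like amount. CXCL9 was 0, 0 and 0.133 CPM with empty capsid and 4.30, 26.1 and 11.6 with StufferOnly, a rise of 8.22 (SE 1.77, adjusted p = 0.0235). CXCL10 was 0.130, 0.188 and 0.133 CPM against 1.82, 5.57 and 4.19, a rise of 4.65 (SE 1.10, adjusted p = 0.0284). StufferOnly replicate 1 was the lowest of its group for both CXCR3 ligands and for 7 members in all.

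CCL2 was 1.82, 0.677 and 1.53 CPM with empty capsid and 8.57, 18.5 and 15.6 with StufferOnly, a rise of 3.39 (SE 0.62, adjusted p = 0.0194). CXCL16 was 43.3, 42.3 and 45.7 CPM against 135, 144 and 208, a rise of 1.89 (SE 0.52, adjusted p = 0.0429). In the featureCounts tables, whose strand setting no source used here gives, reads of CXCL16 and of its overlapping neighbours may have been counted together. IL1B was 4.53, 5.12 and 6.93 CPM against 15.1, 13.4 and 18.4, and rose by 1.50 (SE 0.41, adjusted p = 0.0427). TNFSF14 was 0.156, 0.0752 and 0 CPM, from 8 counts in all, against 2.81, 8.45 and 6.52, a rise of 6.11 (SE 1.72, adjusted p = 0.0459).

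The remaining 3 members did not pass. CCL3 was 0.547, 0.263 and 1.96 CPM with empty capsid and 32.4, 10.3 and 43.6 with StufferOnly, a log2 fold change of 4.96 (SE 1.52, adjusted p = 0.0595). DESeq2 called CCL3 at an adjusted p of 0.00459, and called 14.6% of all genes higher. CSF1 was 57.1, 57.8 and 57.2 CPM against 87.8, 109 and 96.1, without overlap, but its adjusted p was 0.135 for a log2 fold change of 0.77 (SE 0.32). When only the 6 libraries compared were fitted, so that the spread of the miSCA7Stuffer group no longer entered, CCL3 (adjusted p = 0.0030) and CSF1 (adjusted p = 0.0015) were called, 9 members in all, where 18.9% of all genes were called higher. IL33 was 35.5, 22.2 and 17.9 CPM with empty capsid and 30.1, 27.1 and 47.5 with StufferOnly. Those IL33 values overlap, and the log2 fold change of 0.47 (95% interval -0.45 to 1.39, adjusted p = 0.446) spans 0.

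**Figure D3:**
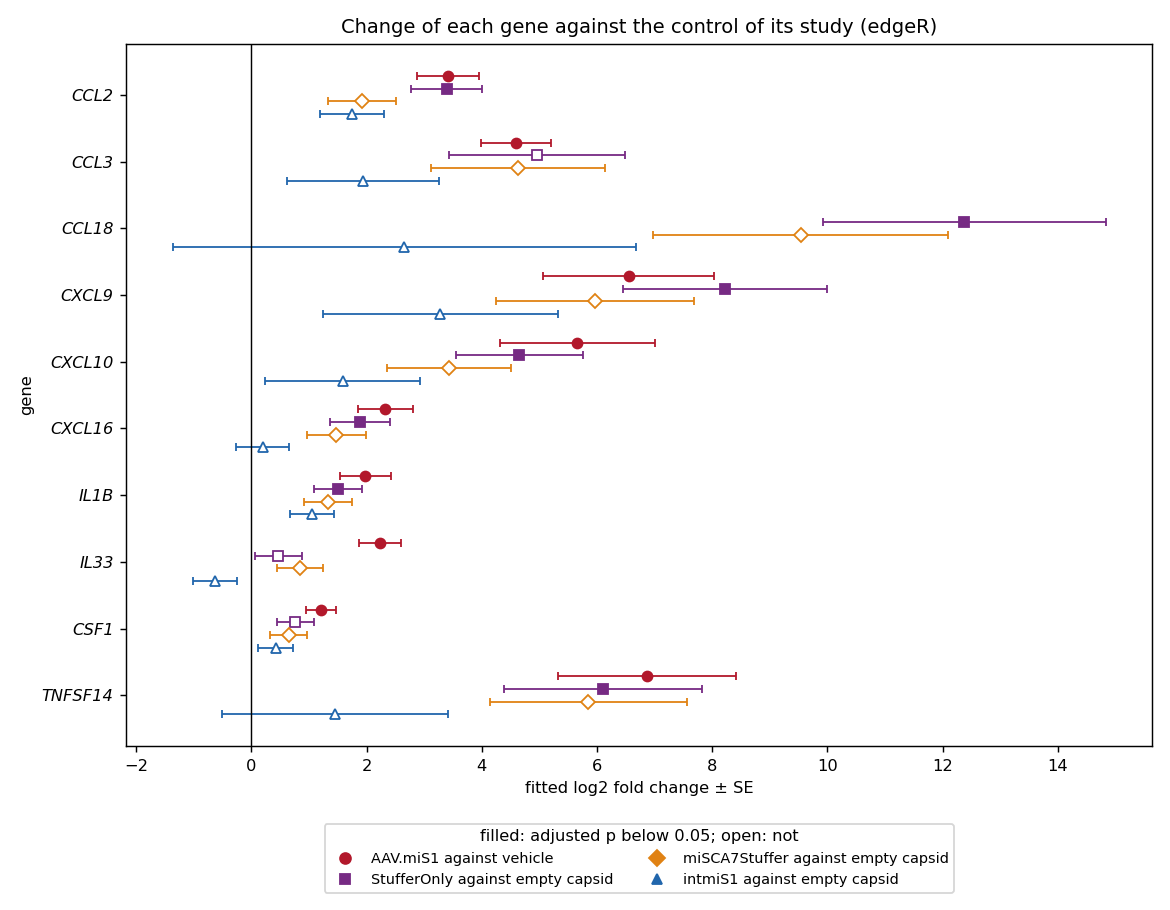
Fitted log2 fold changes (horizontal axis) with SE bars for each gene (vertical axis) in 4 comparisons of a vector with the control of its study; filled symbols passed an adjusted p of 0.05 in edgeR and open symbols did not. Fitted values of CCL18 in Study 2 and of TNFSF14 for AAV.miS1 depend on the prior count, because their controls had 0 counts. Filled symbols appear for AAV.miS1 (9 genes) and StufferOnly (7 genes) only.

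The StufferOnly libraries held 248 to 625 vector RPM and the empty capsid libraries 0.151 to 0.281. Macrophage and monocyte markers summed to 3982 to 7328 CPM with StufferOnly and 62.4 to 68.7 with empty capsid, with 6 of 7 tested called higher and no marker at 0 throughout either group. T and NK cell markers summed to 51.8 to 88.6 CPM against 6.62 to 8.20, with 7 of 8 called higher. B and plasma cell markers summed to 84.1 to 590 CPM against 2.82 to 3.39, and choroid plexus and meninges markers to 140 to 540 against 51.3 to 74.6. Microglia markers summed to 865 to 1010 CPM against 560 to 699, and endothelium markers to 330 to 443 against 149 to 237, both without overlap. Astrocyte markers overlapped, at 6188 to 13411.5 CPM against 10869 to 11569.5. Oligodendrocyte markers were lower, at 14284 to 16643 CPM against 23858 to 35978, with 2 of 4 called lower, and neuron markers summed to 439 to 848 against 1150.5 to 1301 with 0 called. The part of these cells in the rises of the chemokines and cytokines was not tested.

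With miSCA7Stuffer, 0 of the 10 members were called against empty capsid by edgeR, where 0.00479% of all genes were called higher and 0.0% lower. By the unadjusted p, 8 members were below 0.05 (all but IL33 and CSF1), as were 14.5% of all genes in the upward direction. DESeq2 also called 8 members, and 7.0% of all genes, higher. The adjusted p values in edgeR ran from 0.137 to 0.252. The library of miSCA7Stuffer replicate 1 stood apart. It was the lowest of its group for all 10 members and lay above every empty capsid library for CXCL10 only. Replicates 2 and 3 each lay above every empty capsid library for all 10. The share of all genes for which these replicates did so was not counted. All 3 libraries lay above the controls for 1 member, against 12.2% of all genes tested.

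In replicates 1, 2 and 3, CCL3 was 0.183, 47.1 and 21.5 CPM and TNFSF14 was 0, 4.35 and 10.6. The 47.1 CPM of CCL3 in replicate 2 was the highest CCL3 value in Study 2, and the 0.183 CPM of replicate 1 was the lowest. CCL18 was 0, 2.40 and 7.17 CPM, and CXCL9 was 0.122, 1.27 and 7.49. CXCL10 was 0.214, 0.601 and 4.20 CPM, where replicate 1 exceeded the highest empty capsid value of 0.188 by a small margin. CCL2 was 1.65, 6.29 and 7.44 CPM, with replicates 2 and 3 below all 3 StufferOnly libraries. CXCL16 was 34.8, 205 and 125 CPM, and IL1B was 5.83, 20.4 and 15.4. IL33 was 22.5, 60.9 and 52.3 CPM, so that replicates 2 and 3 lay above all 3 StufferOnly libraries for this gene. CSF1 was 43.4, 105 and 121 CPM.

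Vector reads in miSCA7Stuffer replicates 1, 2 and 3 were 1.64, 349 and 257 RPM. No label says whether the tissue sampled from replicate 1 lay where the vector was injected, so the values and the 0 calls over all 3 libraries may include tissue that received little vector. Macrophage and monocyte markers summed to 62.7, 3824 and 4682 CPM in the same order, and T and NK cell markers to 9.46, 36.3 and 52.0. The part of vector amount and of these cells in the members' levels was not tested. Without replicate 1, edgeR called all 10 members higher than empty capsid, with log2 fold changes from 0.94 for CSF1 to 10.13 for CCL18 and adjusted p values from 0.00059 to 0.0222, in a fit that called 15.6% of all genes higher. That fold change of CCL18 is set by the prior count, and in the fit of all 3 libraries the bound from a floor of 3 counts was at least 101-fold higher. IL33 reached an adjusted p of 0.0222 there with a log2 fold change of 1.13.

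Set directly against StufferOnly, miSCA7Stuffer differed for 0 members, and 0.0% of all genes were called either way. At an unadjusted p below 0.05 there was 1 member, CCL2, with a log2 difference of -1.47 (SE 0.57, adjusted p = 0.447), beside 5.34% of all genes in the downward direction. For CCL2 and CCL18 all 3 miSCA7Stuffer libraries lay below all 3 StufferOnly libraries. The share of all genes with such a separation was not counted. The 95% intervals of the differences were wide: -5.88 to 0.20 for CCL18, -3.19 to 2.53 for CCL3 and -0.54 to 1.29 for IL33. They do not show that the cargo made no difference.

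With intmiS1, 0 members were called against empty capsid by edgeR or by DESeq2, and edgeR called 0.0% of all genes higher and 0.0% lower. At an unadjusted p below 0.05 there were 2 members in edgeR, CCL2 and IL1B, and 3 by DESeq2, beside 4.01% and 3.74% of all genes in the upward direction. All 3 intmiS1 libraries lay above all 3 empty capsid libraries for CCL2, CCL3, IL1B and CSF1, which is 4 of 10 members, against 9.5% of all genes tested. The 3 libraries were counted with different programs, replicate 3 with featureCounts like the controls and replicates 1 and 2 with STAR. The part of the counting program in this separation was not tested.

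CCL2 was 4.76, 4.13 and 4.69 CPM with intmiS1 against at most 1.82 with empty capsid, a log2 fold change of 1.74 (95% interval 0.53 to 2.96, adjusted p = 0.576). These 3 values lay below all 3 StufferOnly libraries. IL1B was 10.5, 13.6 and 10.4 CPM against at most 6.93, a log2 fold change of 1.05 (95% interval 0.21 to 1.90, adjusted p = 0.576). CCL3 was 5.15, 2.36 and 3.21 CPM against at most 1.96, and CSF1 was 72.8, 93.0 and 65.7 CPM against at most 57.8. Neither reached an unadjusted p of 0.05.

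The remaining 6 members overlapped with empty capsid. CCL18 had 1 count in the 3 intmiS1 libraries together (0.197 CPM in replicate 2). CXCL9 was 0, 1.57 and 0.189 CPM and CXCL10 was 0.762, 0.983 and 0.0629 CPM, with replicate 2 the highest for both. TNFSF14 was 0.191, 0.590 and 0.126 CPM, and CXCL16 was 43.4, 56.8 and 50.6 CPM. For CXCL16 the 95% interval of the log2 fold change, -0.81 to 1.21, holds 0. IL33 was 15.4, 18.9 and 14.7 CPM, with 2 of the 3 libraries below every empty capsid library, and a log2 fold change of -0.63 (95% interval -1.46 to 0.20, adjusted p = 0.626). Macrophage and monocyte markers summed to 95.3, 202 and 85.6 CPM in intmiS1 replicates 1 to 3, above the 62.4 to 68.7 of empty capsid, with S100A8 at 0. Replicate 2 also held the most T and NK cell markers of the 3, 21.0 CPM against at most 8.20 with empty capsid, and the most B and plasma cell markers, 34.6 against at most 3.39. Reads of the intmiS1 construct were 568, 648 and 44.6 RPM in replicates 1 to 3, of which replicate 3 was counted with another program. The part of these cells and of vector amount was not tested.

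Against StufferOnly, 2 members were lower with intmiS1, CCL18 and CXCL16, where 8.46% of all genes were called lower. CCL18 differed by -9.52 on the log2 scale (SE 2.10, adjusted p = 0.0248), from 1 count against 1894. CXCL16 differed by -1.69 (SE 0.47, adjusted p = 0.0422). All 3 intmiS1 libraries lay below all 3 StufferOnly libraries for 8 members, all but IL1B and CSF1. How many of all genes lay apart in this way was not counted, so the 8 cannot be set against a share. The adjusted p of the 6 uncalled ones ran from 0.0642 for CXCL9 to 0.147 for CCL3. Leaving out StufferOnly replicate 1 kept the call of CCL18 alone, where 6.95% of all genes were called lower, and leaving out any 1 of the other 5 libraries kept neither call. DESeq2 called 7 members: CCL2, CCL18, CXCL9, CXCL10, CXCL16, IL33 and TNFSF14, where it called 13.1% of all genes lower. The comparisons of Study 2 share control libraries, so they are not independent of each other.

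Ordered by median within Study 2, empty capsid was lowest, or level with intmiS1, for 9 members, and intmiS1 was lowest for IL33. StufferOnly had the highest median for 7 members and miSCA7Stuffer for IL1B, IL33 and CSF1. Neighbours in this order mostly overlapped. The steps without overlap were from empty capsid to intmiS1 for CCL2, CCL3, IL1B and CSF1, from miSCA7Stuffer to StufferOnly for CCL2 and CCL18, and for CXCL10 from empty capsid to miSCA7Stuffer and from intmiS1 to StufferOnly.

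Among the members, IL33 had the smallest p for a difference between the AAV.miS1 and intmiS1 effects. Its AAV.miS1 effect minus its intmiS1 effect, each against the control of its own study, was 2.78 on the log2 scale (SE 0.54). The unadjusted p of 6.19e-05 became an adjusted p of 0.128 over 16537 genes, where 0.0% of genes were called either way and 0 members were. DESeq2 gave IL33 a difference of 2.83 with an adjusted p of 0.00091, and called this 1 member and 2.13% of all genes in the same direction. In edgeR IL33 was also called without AAV.miS1 replicate 5 (adjusted p = 0.0300, 1.63% of all genes) or without intmiS1 replicate 3 (adjusted p = 0.0125, 4.4% of all genes). Only these 3 of its 20 alternative fits called IL33, and its highest adjusted p among them all was 0.363. Between AAV.miS1 and StufferOnly the difference of effects for IL33 was 1.78 (SE 0.53, unadjusted p = 0.0035, adjusted p = 0.9999), and again 0 members and 0.0% of genes were called. The next member by p between AAV.miS1 and intmiS1 was CXCL16, with a difference of 2.06 (SE 0.69, adjusted p = 0.172). The 2 studies differ in control, depth and counting program, and these cannot be told apart from the cargo in such differences.

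Receptors of these signals, 10 in all, were followed as well. With AAV.miS1, CSF1R, the CSF1 receptor of microglia and macrophages, rose by 1.20 (SE 0.32, adjusted p = 0.0464), and TNFRSF14, the TNFSF14 receptor HVEM, rose by 3.61 (SE 0.97, adjusted p = 0.0481). CCR2, a receptor of CCL2, and CCR1, a receptor of CCL3, did not pass, with log2 fold changes of 3.38 (SE 0.96, adjusted p = 0.0549) and 1.70 (SE 0.47, adjusted p = 0.0532). IL1RL1 (ST2), the IL33 receptor, had 3.25 (SE 1.04, adjusted p = 0.0806), IL1R1 1.23 (SE 0.50, adjusted p = 0.143) and LTBR 0.84 (SE 0.32, adjusted p = 0.130). CXCR3, the receptor of CXCL9 and CXCL10, failed the filter, with 4 counts in the vehicle libraries and 105 in the AAV.miS1 libraries. Of the AAV.miS1 libraries 5 of 6 lay above every vehicle library, and a two-sided exact permutation test on log2(CPM + 1) gave p = 0.0286 (0.114 adjusted over the 4).

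With StufferOnly, 7 of the 10 receptors were called higher, beside 11.6% of all genes tested. CCR2 rose by 2.04 (SE 0.50, adjusted p = 0.0311), CCR1 by 1.72, CXCR3 by 6.09 and IL1RL1 by 5.07. CSF1R rose by 0.86, TNFRSF14 by 4.14 and LTBR by 1.36, and the 7 adjusted p values ran from 0.0183 to 0.0481. IL1R1 missed the threshold (1.40, SE 0.45, adjusted p = 0.0665) although all 3 libraries lay above empty capsid. CSF1R thus passed in the comparison in which its ligand CSF1 did not, and IL1RL1 in the one in which IL33 did not; whether ligand and receptor differ was not tested. None of the 10 receptors passed with miSCA7Stuffer or intmiS1 against empty capsid. Against StufferOnly, CCR2, CCR1, CSF1R, TNFRSF14 and LTBR were lower with intmiS1, by log2 differences from -0.83 for CSF1R to -3.33 for TNFRSF14. In that comparison 8.46% of all genes were called lower.

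CCR8, the receptor of CCL18, was at 0 in 18 of the 22 libraries and at most 0.637 CPM in the others. CXCR6, the receptor of CXCL16, needs caution. In Study 1 it had 0 counts in vehicle and 25 in AAV.miS1 libraries on its own strand, while 61 and 95 counts lay on the opposite strand. In Study 2 it was 2.72 to 7.61 CPM in every group, with a log2 fold change of 0.48 (SE 0.41, adjusted p = 0.435) for StufferOnly. Reads from the opposite strand cannot be told apart there.

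**Figure D4:**
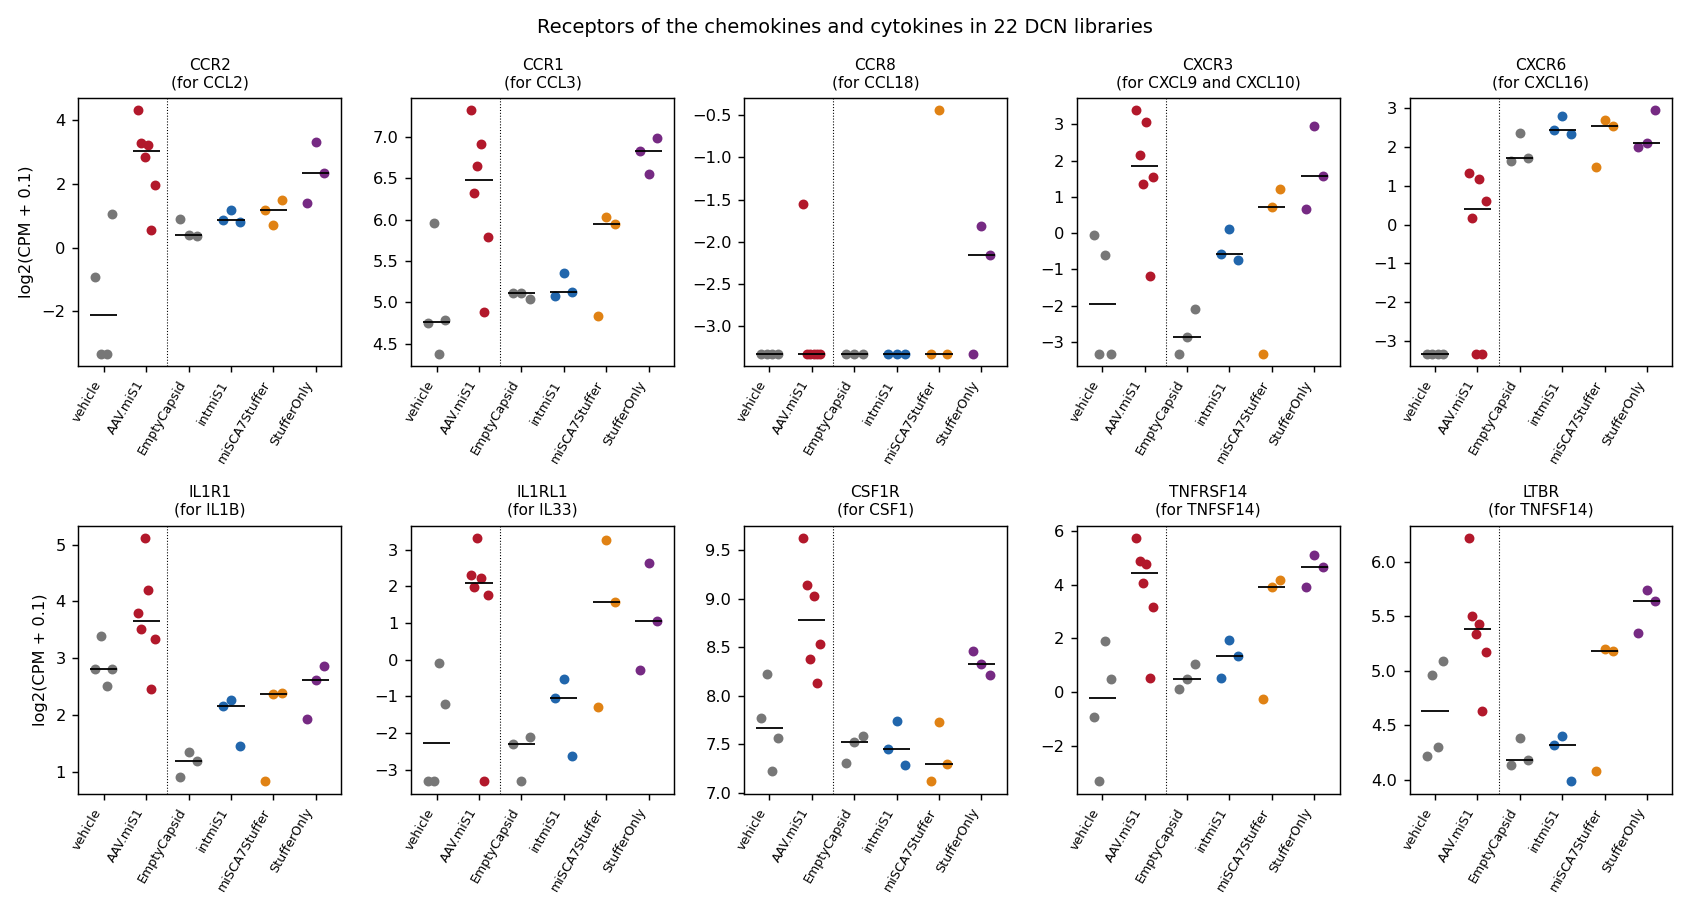
Each point is 1 library, as log2(CPM + 0.1) on the vertical axis by group on the horizontal axis, for 10 receptors with their ligand named in each panel, and a line marks each group's median; the dotted line separates Study 1 from Study 2. CSF1R, TNFRSF14 and LTBR are higher in all 3 StufferOnly libraries than in any empty capsid library, and CCR8 is at 0 in most libraries.

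Other chemokine ligands were mostly too low to be tested. Beside the list counts here and below, 7.22% of all genes tested were called higher in Study 1 and 0.284% lower. With StufferOnly these shares were 11.6% and 3.81%. In Study 1, 6 of 32 passed the filter, 1 was called higher and 0 lower. That gene was CCL5, another ligand of CCR1, which rose by 4.11 (SE 0.93, adjusted p = 0.0313). With StufferOnly 16 were tested, 4 rose and 1 fell: CCL5 rose by 3.13 and CXCL11, the third CXCR3 ligand, by 3.79, while CXCL14, a chemokine made without inflammation in many tissues, fell by 1.71 on the log2 scale (adjusted p = 0.0426). Among chemokine receptors 2 of 11 rose in Study 1, CXCR4 by 3.63 and CCRL2 by 3.12. Among 20 tested with StufferOnly 9 rose and 0 fell, CCRL2 by 3.97.

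In the interleukin-1 pathway, 5 of 13 tested genes rose in Study 1 and 0 fell. IL1RN, the secreted antagonist of the IL1B receptor, rose by 4.08 (SE 0.90), GSDMD, the pore protein through which IL1B leaves cells, by 3.64, and NLRP3, the inflammasome sensor, by 2.03. With StufferOnly 10 of 20 rose, among them IL1RN by 4.15 (SE 0.60), PYCARD, the inflammasome adaptor, by 2.63, and IL18BP, the decoy of IL-18, by 1.21. The median log2 fold change of this list was 1.34 in Study 1 and 2.17 with StufferOnly.

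In the colony-stimulating factor axis 4 of 6 tested genes rose in Study 1, among them the myeloid transcription factor SPI1 by 3.43, CSF2RB, the shared beta chain of the GM-CSF receptor, by 3.40, and TYROBP, the myeloid signalling adaptor, by 3.01. With StufferOnly the same number, 4, rose and 1 fell. SPI1 rose by 2.91 and CSF2RB by 3.18. The gene that fell was IL34, the second ligand of CSF1R, which neurons make; it fell by 0.97 on the log2 scale and is named here after its value was seen.

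In the tumour necrosis factor superfamily 7 of 15 tested genes rose in Study 1 and 13 of 24 with StufferOnly, and 0 fell in either. TNFSF12 (TWEAK) rose by 2.29 and 2.62 in the 2 comparisons and TNFRSF1B, the second TNF receptor, by 2.40 and 2.25. TNFRSF12A, the TWEAK receptor, rose by 4.22 with AAV.miS1, and CD40LG, the T cell ligand of CD40, by 3.28 with StufferOnly. Among other cytokines TGFB1 rose by 2.40 with AAV.miS1, as 1 of 6 tested, and by 1.85 with StufferOnly. There 5 of 17 rose, including OSM, a myeloid cytokine of the interleukin-6 family, by 4.75, and 1 fell, TGFB3, which fell by 1.09 on the log2 scale.

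Transcription factors that act upstream of these genes rose for 7 of 13 in Study 1 and 11 of 13 with StufferOnly, and 0 fell. In Study 1 IRF9, which takes part in interferon signalling, rose by 1.26 (SE 0.25), and FOS, a part of AP-1, rose by 2.36. With StufferOnly JUN rose by 2.21 (SE 0.33), RELB, an NF-kappa-B subunit, by 2.53 and NFKBIA, the NF-kappa-B inhibitor that NF-kappa-B itself induces, by 1.09. The median of the 13 was 1.54 in Study 1 and 1.55 with StufferOnly, against 0.02 for all genes in both. In the comparisons of miSCA7Stuffer and intmiS1 with empty capsid, 0 genes of any of these 7 lists were called. The calls in these lists depend on the left-out libraries named above, as few genes of the whole table were called without any 1 of them. StufferOnly replicate 1 is the exception, since 9.38% of all genes were called higher without it.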

How the data were processed

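Total RNA of 22 DCN libraries was used. Per the labels' protocols, libraries were directional and depleted of ribosomal RNA. STAR 2.6.0c and DESeq2 are the tools named, per the submitters' processing notes. The deposited values are raw counts of reads by gene, made by the authors as STAR tables (Study 1 and 2 intmiS1 libraries) or featureCounts tables in which a read over several genes was added to each of them. No source used here gives the genome build, the annotation or the strand setting. The reverse-strand STAR column was used for Study 1 and the unstranded column for intmiS1 replicates 1 and 2, which featureCounts tables followed more closely (mean Spearman correlation 0.905 against 0.886). Symbols came from the reference name table (24009 of 34847 identifiers).

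Tests used R 4.3.3 and edgeR 4.0.16 (TMM, filterByExpr with a minimum count of 10 and minimum total of 15, prior count 0.125), with limma 3.58.1 and DESeq2 1.42.0 beside it, and were checked on simulated data. Study 1 was fitted on 10 libraries, StufferOnly and miSCA7Stuffer on 9, intmiS1 on 12 and effect differences on 22. SEs were approximated from the F statistic and 95% intervals use the t distribution with the test's degrees of freedom. Same-numbered miSCA7Stuffer and StufferOnly libraries deviated together (correlations 0.18 to 0.45), which comes from the data and not the labels. Differently numbered libraries of these groups ran from -0.37 to 0.25, so the 2 ranges overlap. Other same-numbered pairs of Study 2 groups ran from -0.10 to 0.16. Members, gene lists and tests were chosen with earlier results of these data known. Genes named from a list are among its 3 called genes of smallest p, and known receptors of the members are given; some genes that these rules name are not reported here, though list counts include them. Alternatives were another tool, scaling, filter, strand column, left-out libraries, a replicate block and the share of unmapped reads.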

Additional observations from a re-analysis of the deposited data

Results flagged for a closer look

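A test for single high or low libraries was run on 19 groups of 4 or 6 libraries. For normally distributed values, chance alone would mark about 1 in 20 groups, a rate that does not hold for low counts with many at 0. It marked CCL18 in AAV.miS1 replicate 1, at 80.9 CPM against at most 16.6 in the other 5 libraries. The remaining marks fell on vehicle libraries that alone held any count: CCL18 in vehicle replicate 1 (0.430 CPM, 1 count), CXCL9 in vehicle replicate 3 (1.68 CPM, 6 counts) and CXCL10 in vehicle replicate 3 (0.280 CPM, 1 count). The test always marks such a library, so these marks say nothing more than that. Without vehicle replicate 3 the edgeR comparison of AAV.miS1 with vehicle called 0 members, and 9 had an unadjusted p below 0.05.

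Counts on the opposite strand, which the comparisons did not use, were above the limit set for 0 vehicle counts in a pair of members. CCL3 had 24 opposite-strand counts in the AAV.miS1 libraries and 0 in the vehicle libraries, and IL1B had 14 and 0. They made up 9.76% and 3.18% of the counts on both strands in the AAV.miS1 libraries. The limit for a vehicle count of 0 was a floor of 3 counts, or 0.332 opposite-strand CPM. The lower bounds of two-sided 95% intervals with AAV.miS1 were 0.783 for CCL3 and 0.390 for IL1B, counting error only. That floor is lower than the upper bound of such an interval, so the limit is lenient. Vehicle libraries held only 4 CCL3 and 47 IL1B counts on the genes' own strand. A vehicle count of 0 thus cannot show that the opposite-strand share differed between the groups. Replicate 1 gave 12 of the CCL3 and 9 of the IL1B counts. Without it CCL3 kept 12 counts with a lower bound of 0.400, and IL1B kept 5 with a lower bound of 0.105, which is no longer above that limit.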

How the results depend on the processing

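Of the 9 members called with AAV.miS1, 0 to 9 were called when single libraries were left out, 3 with the unmapped share as a covariate and 3 within its upper set, while DESeq2 called 10 with all libraries and 10 without vehicle replicate 2 (an alternative chosen after seeing the data). Of the 7 with StufferOnly, single left-out libraries gave 0 to 4. For miSCA7Stuffer they gave 0 to 10, and DESeq2 gave 8 in place of 0. For intmiS1 against StufferOnly, called for 2, they gave 0 to 1, DESeq2 gave 7, and replicate 3 as the sole intmiS1 library, assumed to vary like the other groups, gave 0. For the AAV.miS1 effect minus the intmiS1 effect they gave 0 to 1 and DESeq2 gave 1 in place of 0. For some of these fits, such as DESeq2 without vehicle replicate 2, no share of all genes called is given here. Their member counts cannot be set against such a share.

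Replicate numbers are shared in Study 2. With the number as a block, miSCA7Stuffer against StufferOnly, the one comparison whose same-numbered libraries all deviated together, again had 0 members called. In the others the pairing was not borne out by every pair, and the block gave 6 members for StufferOnly (TNFSF14 at an adjusted p of 0.0633), 0 for miSCA7Stuffer, and for intmiS1 0 against empty capsid and 3 against StufferOnly. The shares of all genes called in these blocked fits are not given here, so the member counts cannot be set against them. Over the 9 libraries without intmiS1, 6 correlated best with their own number, a hint from the data and not from the design.

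Direction changed only for uncalled values, given here as log2 ranges over left-out libraries. For miSCA7Stuffer against StufferOnly these were CCL3 -1.42 to 0.32, CXCL16 -1.03 to 0.10, IL1B -0.56 to 0.27, CSF1 -0.40 to 0.29 and TNFSF14 -1.45 to 0.42, and for miSCA7Stuffer against empty capsid CSF1R -0.26 to 0.019. For intmiS1 against empty capsid they were CSF1R -0.11 to 0.12 and LTBR -0.086 to 0.12. Replicate 3 as the sole intmiS1 library gave -1.19 for CXCL10, -0.36 for IL1RL1, -0.19 for CSF1R and -0.25 for LTBR, the reverse STAR column -0.83 for CXCR6, and no filter -0.021 for LTBR. For the AAV.miS1 effect minus the StufferOnly effect the ranges were CCL2 -0.32 to 0.87, CCL3 -1.37 to 0.97 and CXCL9 -4.04 to 4.82, and DESeq2 gave TNFSF14 -1.15. The causes were not tested. Depth limits vehicle replicate 2, in which 7 of the 10 members had 0 counts.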
